A study of Nematostella vectensis with 17 samples.

Results

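Strong isolated binding sites of Brachyury were described in gastrulae of the sea anemone Nematostella vectensis, a cnidarian. A site was taken from the peak list of the first antibody (AB1) if its peak overlapped a peak of the second antibody (AB2) by at least 1 bp. Such a peak is called shared. No other shared AB1 summit could lie within 1000 bp on the same scaffold, and the ChIP signal minus the Control signal in the AB1 list had to be at least 4. The rule gave 1083 sites, which was 7.60% of the 14257 AB1 peaks and 10.2% of the 10607 shared ones. The sites were thus chosen by the AB1 signal and the presence of an AB2 peak, and AB1 values are given as a description only. The height of the AB2 peak was not used by the rule. The position of its summit was limited through the overlap, which left the summits of all shared peaks at most 200 bp apart.

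The series held 17 samples, of which 3 were ChIP-seq samples from whole embryos (AB1, AB2 and an input) whose labels give no injection and 14 were RNA-seq libraries of morpholino-injected embryos, not used here. Per the labels, 2 rabbits were injected with the same gel-purified, His-tagged, full-length Nematostella Brachyury made in bacteria. Chromatin came from embryos crosslinked for 12 min in 2% formaldehyde and was sheared to 100 to 200 bp on average. Each antibody had 1 peak list without replicates, so no value below carries a replicate error, no difference between groups of sites was tested, and sites of 1 library are not replicates of each other. The read depth behind the signals was not known, and whole embryos do not show in which cells a site was bound.

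Brachyury is a T-box transcription factor. T-box proteins bind DNA through a conserved domain that recognises a short element, alone or as 2 units on a palindromic pair. In vertebrates the gene is needed for the notochord and posterior mesoderm, and in Nematostella it is expressed around the blastopore, the later mouth. The title of the series places these binding data in a comparison of Brachyury targets between animals and in a feedback loop with Wnt signalling. The lists name no genes, and neither gene positions nor sequence of the nemVec1 assembly were used here, so the sites are given by scaffold and position.

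The strongest isolated site lay on scaffold 4 at 1073865 to 1074108 (nemVec1, here and below). Its ChIP signal was 49.96 against a Control of 0.49 in the AB1 list, and 56.14 against 0.27 in the AB2 list. It ranked 2 in both lists by ChIP minus Control, and the summits were 6 bp apart. Its isolation was narrow, since the nearest shared summit lay 1048 bp away, a further 3 AB2 summits lay within 1000 bp, and 8 other shared summits lay within 10 kb. The second site, on scaffold 54 at 460306 to 460549, had no other shared summit within 10 kb. Its nearest shared summit was 33295 bp away, with no further summit of either list within 1000 bp. The ChIP signal there was 34.98 with AB1 and 30.1 with AB2, over Controls of 0.56 and 0.34. Both leading sites thus had high ChIP signal over a low Control with each antibody, in different surroundings.

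The third site, on scaffold 3 at 616707 to 616950, had ChIP signals of 32.95 (AB1) and 26.73 (AB2). The fourth, on scaffold 158 at 126614 to 126857, had 31.83 and 29.87. The fifth, on scaffold 30 at 1336778 to 1337021, had 31.09 and 28.81. These 3 sites were again high with both antibodies, with summits at most 20 bp apart. On scaffold 33 at 167914 to 168157 the AB1 signal was 27.79 and the AB2 signal 16.98, and this was the only site of the leading 10 outside the top 100 of the AB2 list, at rank 105. The next site, on scaffold 1 at 300409 to 300652, had signals of 28.12 and 23.08. The site on scaffold 6 at 888986 to 889229 had 27.97 and 28.15, so that AB2 was as high as AB1 there. The last of the 10 were on scaffold 26 at 45872 to 46115, with 26.58 and 22.45, and on scaffold 66 at 444382 to 444625, with 25.05 and 22.51. Over these 10 sites the Control reached at most 1.3 in the AB1 list and 0.89 in the AB2 list. Their AB1 fold enrichments, the authors' ratio of ChIP to Control, ran from 21.6 to 102.53. Of the 10, 5 had another shared summit within 2000 bp.

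**Figure D1:**
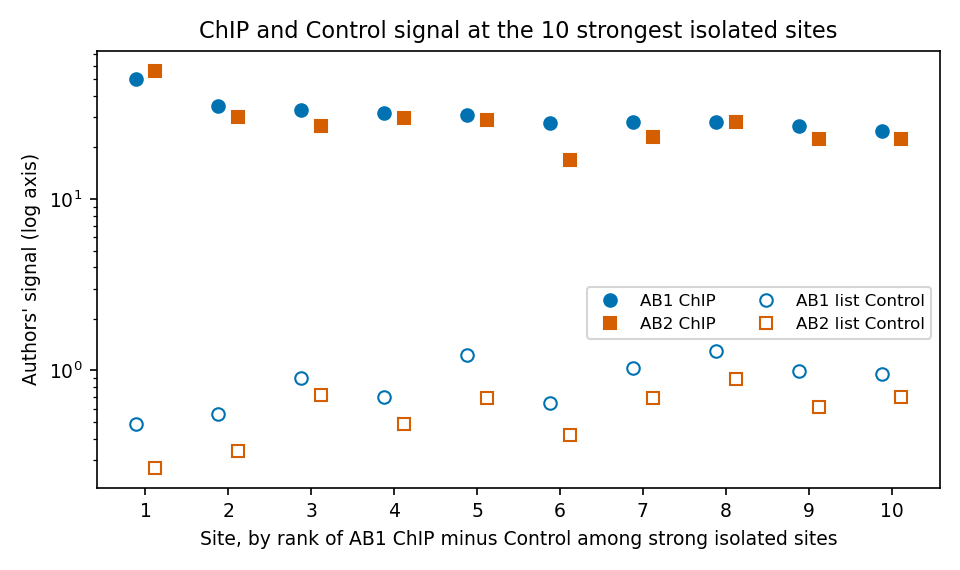
ChIP signal (filled) and Control signal (open) of the authors on a log axis at the 10 isolated sites with the highest AB1 ChIP minus Control, with circles for the AB1 list and squares for the AB2 list, 1 library each. Every ChIP value lies above every Control value, and the sixth site shows the widest gap between the antibodies (27.79 with AB1 and 16.98 with AB2).

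Among all 1083 sites the AB1 ChIP minus Control ran from 4 to 49.47 with a median of 5.48, so that most sites lay near the threshold: 390 were below 5 and 20 were at 20 or above. The AB1 ranks ran from 2 to 2262. Of the 2214 shared AB1 peaks at or above the threshold, 48.9% were isolated. Of the 10 AB1 peaks with the highest values 1 was an isolated site and 9 had another shared summit within 1000 bp. Of the top 100, 38 were isolated sites, 61 had a close neighbour and 1 was not shared. Of the top 1000, 405 were isolated, 584 had a close neighbour and 11 were not shared.

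Just inside, at 4.00, were 4 peaks. The peak on scaffold 129 (403309 to 403552) had an AB2 ChIP minus Control of 4.99, and that on scaffold 28 (73692 to 73935) one of 2.02. On scaffold 49 (247821 to 248064) the AB2 value was 2.57, and on scaffold 53 (304566 to 304809) it was 5.04. Just outside, at 3.99, were 3 peaks. Their AB2 values were 4.48 on scaffold 402 (39041 to 39284), 6.95 on scaffold 28 (483229 to 483472) and 5.2 on scaffold 207 (4852 to 5095). The peaks just outside were at least as high with AB2 as 2 of those just inside, and the ranges overlapped.

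The AB2 library gave a second reading of the strength of these sites. The AB2 ChIP minus Control had a median of 5.17, with 80% of the sites between 2.96 and 9.85 and a full range of 1.06 to 55.87. It was at least 4 at 780 sites (72%), against 20.1% of all shared AB1 peaks, and the partner was in the top 10% of the AB2 list at 598 sites (55.2%), against 14.3% of all shared peaks. Isolated sites under the AB1 threshold (weak isolated, 5184 sites) had a median AB2 value of 1.83, and 1.77% of them reached the top 10%. Shared peaks at or above the AB1 threshold with another shared summit within 1000 bp (strong joined, 1131 sites) had a median of 6.02, and 66.7% reached the top 10%. The antibodies share their antigen and each list was set against a Control signal, so the second reading is not free of what the libraries share.

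**Figure D2:**
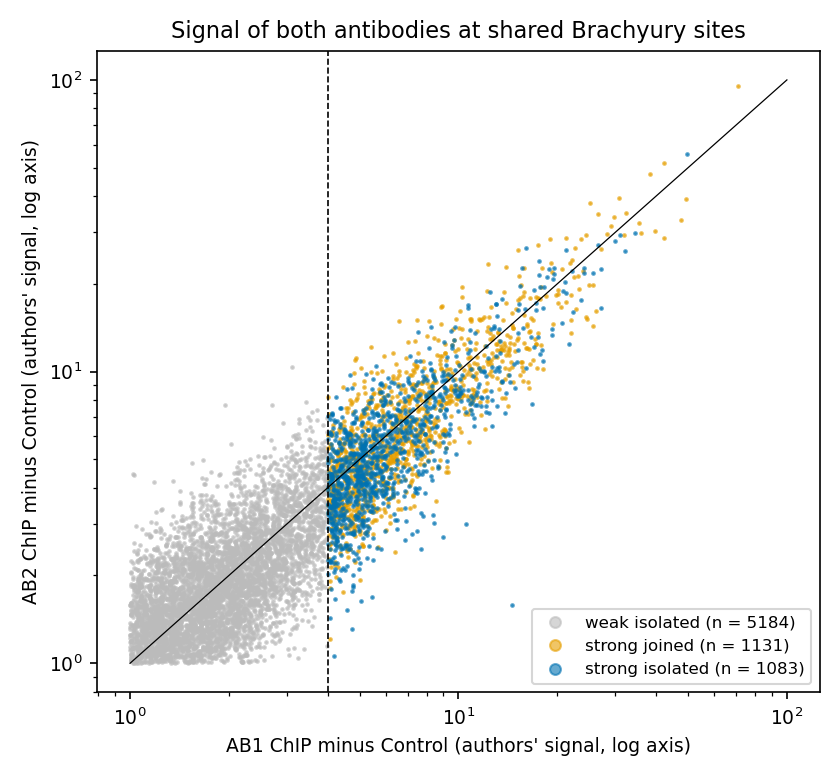
AB1 (x) and AB2 (y) ChIP minus Control of the authors on log axes for shared sites, with 1083 strong isolated sites in blue, 1131 strong joined sites in orange and 5184 weak isolated sites in grey. The dashed line is the AB1 threshold of 4 and the full line marks equal values. Blue and orange points overlap over most of the range, and a single blue point, at 14.51 in the AB1 list and 1.58 in the AB2 list, lies farthest from the line of equal values among the blue points.

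The order of the sites was shared in part between the libraries. In sites with an AB1 value of 4 to under 5 the median AB2 value was 3.94 (n = 390). It was 4.78 at 5 to under 6 (n = 259), 5.99 at 6 to under 8 (n = 203) and 8.29 at 8 to under 12 (n = 141). In the 2 highest classes it was 12.5 (12 to under 20, n = 70) and 22.0 (20 and over, n = 20). The share in the top 10% of the AB2 list went from 26.4% in the lowest class to 100% in the highest, and passed 90% from 8 upward (94.3%). Spearman's rho between the AB1 and AB2 values was 0.68 across the 1083 sites, given as a description. It was 0.13 within the class at 4 to under 5, which spans a narrow range of AB1 values, and 0.68 within that at 20 and over.

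At matched AB1 values, isolated and joined sites had similar median AB2 values below 20. The median AB2 value was 3.94 in isolated and 4.00 in joined sites at 4 to under 5, 5.99 and 6.08 at 6 to under 8, and 12.5 and 12.4 at 12 to under 20. At 20 and over it was 22.0 in 20 isolated and 25.2 in 44 joined sites. The share in the top 10% of the AB2 list was 26.4% in isolated and 28.6% in joined sites at 4 to under 5, and 70.9% and 81.8% at 6 to under 8. In the latter class the AB2 value was at least 4 at 85.2% of isolated and 92.9% of joined sites. These differences were not tested, and no replicate spread is available to set them against.

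Within sites the signals of both antibodies were close. Of the 1083, 1033 (95.4%) had AB1 and AB2 values within 2-fold of each other. The share was 95.8% in weak isolated sites, 97.5% in strong joined sites and 95.6% in all shared peaks. Closeness within 2-fold was thus not particular to the members. The median log2 ratio of AB1 to AB2 was 0.20. Its level depends on the antibody that set the threshold: with the rule exchanged (shared AB2 peaks, AB2 ChIP minus Control of at least 4, isolated among shared AB2 summits), 965 sites were found and the median log2 ratio of AB1 to AB2 was -0.09. The partners of 735 members were among them, which was 67.9% of the AB1-chosen and 76.2% of the AB2-chosen sites. The lists also differed in peak width, 244 bp for AB1 and 158 bp for AB2. The Control was a median of 1.47 times higher in the AB1 list at the same sites. Whether the signals of both lists share a scale is not stated, so the ratios are given as a description.

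A few sites differed widely between the antibodies. The AB1 value was more than 2-fold above the AB2 value at 49 of the 1083 sites, against 198 of the 10607 shared peaks (1.87%). The reverse held at 1 site, against 265 shared peaks (2.5%). The rule set a floor for AB1 and none for AB2: of the 49, 48 had an AB2 value under 4. With the rule exchanged, AB1 was the higher by more than 2-fold at 1 site and AB2 at 39, and nothing is read from the asymmetry. The largest ratio was on scaffold 3 at 79359 to 79602, where the AB1 ChIP signal was 15.39 over a Control of 0.88 and the AB2 signal 2.12 over 0.54. That site ranked 161 in the AB1 list and 9270 in the AB2 list, with summits 9 bp apart and no other summit of either list within 1000 bp. Its log2 ratio was 3.20, and the next highest was 1.98. That second site, on scaffold 949 at 32675 to 32918, had a ChIP signal of 6.74 over a Control of 2.56 with AB1 and 1.58 over 0.52 with AB2, the lowest AB2 rank of all members (15092). The third, on scaffold 185 at 286277 to 286520, had 7.98 over 3.24 and 2.44 over 1.13. The sites on scaffolds 949 and 185 differed from the first in that their Control in the AB1 list was higher and their summits lay 153 and 151 bp apart. Of the 49 sites, 13 had an AB1 Control over 1.5, against 4.71% of all members and 1.4% of all shared peaks. Summits were more than 50 bp apart at 8 of the 49, against 3.32% of all members and 7.22% of all shared peaks. Which antibody reflects Brachyury at these sites was not tested.

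At the other end, the site on scaffold 91 at 228231 to 228474 had an AB1 signal of 5.44 over 0.76 and an AB2 signal of 10.26 over 0.52, a log2 ratio of -1.06. The site on scaffold 166 at 85278 to 85521 had 4.85 over 0.62 and 8.6 over 0.43. On scaffold 139 at 496306 to 496549 the signals were 5.1 over 0.51 and 9.12 over 0.39. These 3 had AB1 Controls under 1, summits at most 18 bp apart and AB1 values near the threshold of the rule.

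The binding summits of both antibodies lay close together at most sites. The median distance between the AB1 and AB2 summits was 10 bp, 831 of 1083 pairs (76.7%) lay within 20 bp, and 29 summits fell on the same base. Closeness was fixed in part by the selection, since peaks had to overlap and the AB2 peak with the nearest summit was taken. Over all shared peaks the distance was at most 200 bp. The AB2 summit lay to the right of the AB1 summit at 515 sites and to the left at 539, so there was no common shift. Summits were more than 50 bp apart at 36 sites (3.32%), against 7.22% of all shared peaks. The median distance was 15 bp in weak isolated sites, of which 62.2% lay within 20 bp, and 11 bp in strong joined sites, of which 72.8% did. Among the isolated sites the median distance was 11 bp at AB1 values of 4 to under 5 and 6.5 bp at 20 and over, where all 20 pairs lay within 20 bp. Graded by the AB2 value instead, which the rule did not use, 67.7% of pairs lay within 20 bp below 4 (n = 303) and 95.9% at 12 to under 20 (n = 49). The strongest sites by either antibody thus had the closest summits, and the part of read depth in this was not tested.

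**Figure D3:**
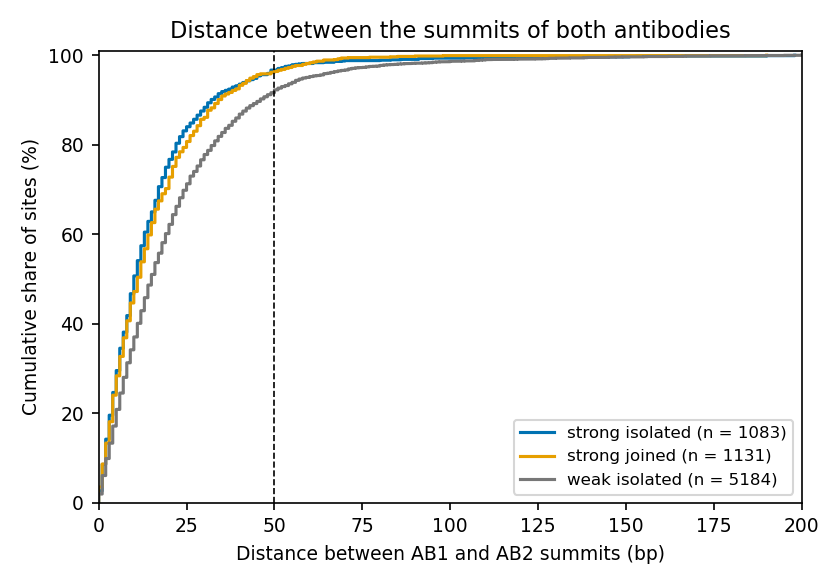
Cumulative share of sites (%) by distance between the AB1 and AB2 summits (bp) in strong isolated (blue, n = 1083), strong joined (orange, n = 1131) and weak isolated sites (grey, n = 5184), with a dashed line at 50 bp. The blue and orange curves run close together, at 96.7% and 96.4% by 50 bp, above the grey curve at 92.3%.

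Not all sites were strong by their fold enrichment. The AB1 fold had a median of 10.04 and the AB2 fold a median of 12.97. The AB1 fold was under 4 at 40 sites (3.69%), against 42% of all shared peaks, a share that the rule itself fixes in part, because a difference of at least 4 gives a low fold only where the Control is high. The Control in the AB1 list had a median of 0.67, with 80% of the sites between 0.39 and 1.14, and lay over 1.5 at 51 sites (4.71%). Of all shared AB1 peaks 1.4% had such a Control, of weak isolated sites 0.81% and of strong joined sites 2.03%. The difference from weak sites is fixed in part as well. Every listed AB1 peak had a fold of at least 2, so a peak with a Control over 4 always passes the threshold. At these 51 sites the median fold was 3.13 with AB1 and 3.32 with AB2. The Control in the AB2 list had a median of 2.15 there, against 0.44 at the other 1032 sites. This is not a separate reading, since the Controls of both lists had a Spearman's rho of 0.94 across members. The series held 1 input, and whether both Controls come from it is not stated. Summits lay more than 50 bp apart at 13 of the 51 (25.5%) and at 23 of the other 1032 (2.23%).

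The highest Control, 14.8, was on scaffold 436 at 96519 to 96762, where the AB1 ChIP signal was 31.58. The AB2 partner, at 96372 to 96529, had a ChIP signal of 11.3 over a Control of 3.53, with the summit 190 bp away. By ChIP minus Control the AB1 peak ranked 107 in its list, with a fold of 2.13. On scaffold 347 at 204339 to 204582 the AB1 signal was 20.07 over 9.55. The AB2 signal there, at 204580 to 204737, was 5.74 over 2.74, with summits 198 bp apart. On scaffolds 436 and 347 the peaks of both antibodies overlapped only at their ends. On scaffold 2994 at 2975 to 3218 the signals were 11.56 over 5.4 with AB1 and 10.11 over 3.05 with AB2, with summits 91 bp apart. At these 3 sites the ChIP and Control signals were high together, and the part of the Control in their call was not tested. Not all sites with a high Control were of this kind, since 12 of the 51 had a fold of at least 4. Their AB2 values ran from 1.85 to 22.59 with a median of 11.3, and their summits were at most 34 bp apart.

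**Figure D4:**
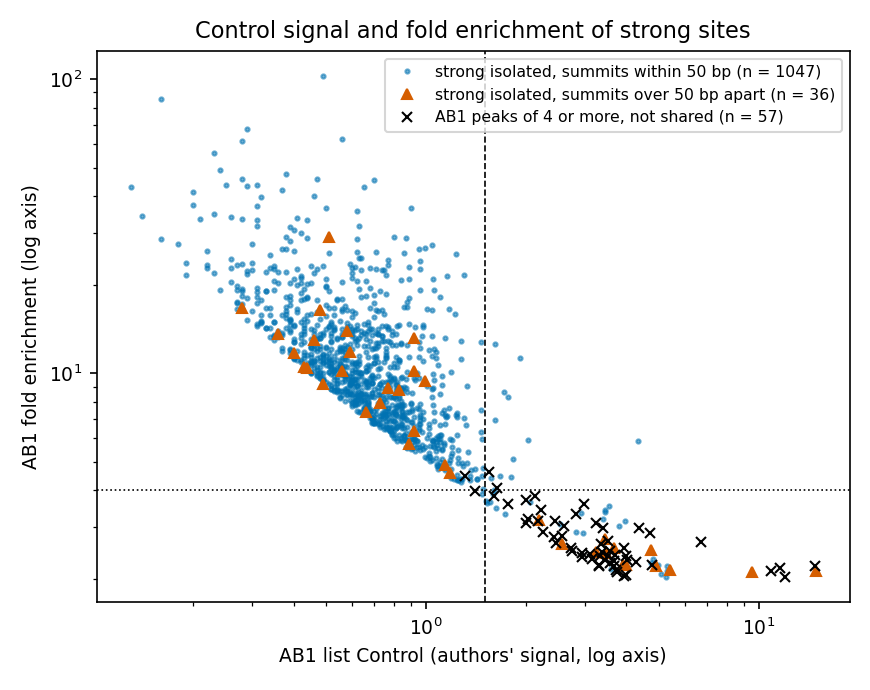
AB1 fold enrichment against the Control of the AB1 list (both log axes) at 1047 strong isolated sites with summits within 50 bp (dots), 36 with summits more than 50 bp apart (triangles) and 57 AB1 peaks with ChIP minus Control of at least 4 that no AB2 peak overlapped (crosses). The dashed line is a Control of 1.5 and the dotted line a fold of 4. The lower edge of the cloud is set by the threshold of the rule. The crosses lie at Controls of 1.31 to 14.74 and folds of 2.03 to 4.62, in the same corner as 13 of the triangles.

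The highest AB1 fold, on scaffold 4, came with a Control of 0.49, below the median of 0.67 over members. A fold is a ratio to the Control, so high folds at a low Control follow in part from the definition. After scaffold 4, the highest AB1 folds were on scaffold 217 at 25245 to 25488, with a fold of 85.39 from a ChIP signal of 13.76 over a Control of 0.16, and on scaffold 81 at 762621 to 762864, with 67.4 from 19.61 over 0.29. With AB2 their folds were 157.78 and 64.03, so both were high with either antibody. These 2 sites were chosen after their values were seen.

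Isolation from shared summits did not always mean isolation from every peak. Another AB1 summit that was not shared lay within 1000 bp of 96 sites (8.86%), and of 7.33% of weak isolated sites. A further AB2 summit, beyond the partner, lay within 1000 bp of 243 sites (22.4%), and of 16.9% of weak isolated sites. Over all shared peaks, which include those with a close neighbour that the rule leaves out, any other AB1 summit was that close at 45.4% and a further AB2 summit at 51.2%, and nothing is read from these shares. With neither, 769 sites (71.0%) remained, with a median AB2 value of 5.07. Of the members, 63 overlapped 2 AB2 peaks, and no AB2 peak was the partner of 2 members.

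Isolated sites were spread over a wide range of distances from the next shared summit. The median distance was 6264 bp, with sites alone on their scaffold counted as farther than any other. A shared summit lay more than 1000 and up to 2000 bp away at 274 sites (25.3%) and more than 10 kb away at 366 (33.8%), and 84 sites (7.76%) had no other shared peak on their scaffold. In weak isolated sites these shares were 19.0%, 42.2% and 7.27%, with a median of 9764 bp. The strong isolated sites were thus nearer to the next shared summit than the weak ones, although the rule kept both beyond 1000 bp. Across AB1 classes the median distance fell from 7269 bp at 4 to under 5 to 3494 bp at 20 and over (n = 20). Across AB2 classes the order was not steady, with 6701 bp below 4, 9643 bp at 5 to under 6 and 1782 bp at 20 and over (n = 22). Of the 999 sites with a neighbour on the scaffold, the nearest one was itself isolated at 770 (77.1%). It was at or above the AB1 threshold at 284 (28.4%), where 20.9% of all shared peaks were. For the 4807 weak isolated sites with a neighbour these shares were 78.3% and 17.8%. Of all shared peaks 59.1% were isolated, but that share counts every peak of a pair or run. Only an outer summit of a pair or run can be nearest to an isolated site, so nothing is read from the difference between 77.1% and 59.1%.

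**Figure D5:**
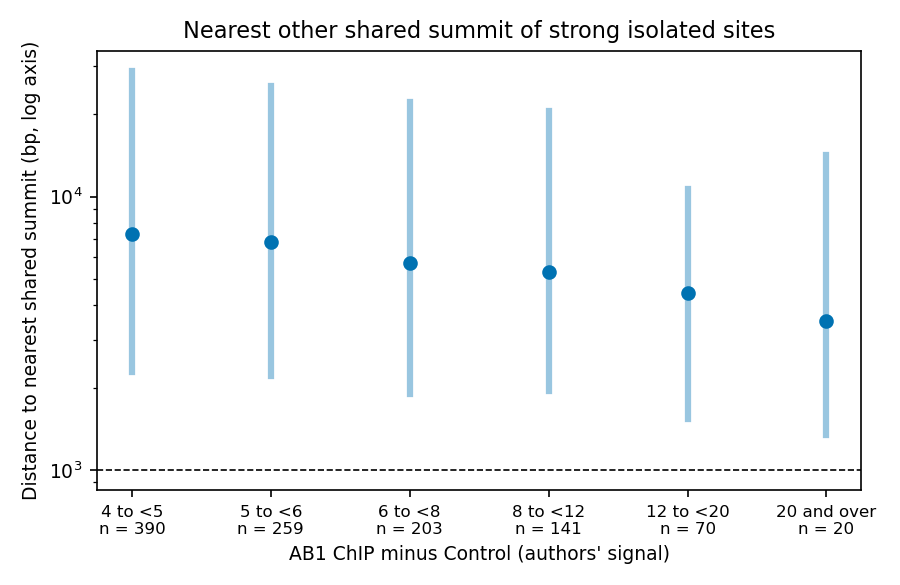
Distance from strong isolated sites to the nearest other shared AB1 summit (bp, log axis) by class of AB1 ChIP minus Control, as the median (points) and the quartiles (bars), with sites alone on their scaffold counted as farther than all others. The dashed line is the 1000 bp of the rule. The medians go from 7269 bp in the lowest class to 3494 bp in the highest, while the bars of all 6 classes overlap.

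Among sites with another shared peak on their scaffold, the 3 most remote had AB1 values of 4.4 to 6.88. On scaffold 78 at 276471 to 276714 the nearest shared summit was 227328 bp away, and the ChIP signal was 5.63 over 0.57 with AB1 and 5.66 over 0.39 with AB2. On scaffold 159 at 426829 to 427072 it was 182930 bp away, with signals of 7.58 over 0.7 and 3.97 over 0.55. On scaffold 246 at 346880 to 347123 it was 139356 bp away, with 4.75 over 0.35 and 2.65 over 0.3. None of these 3 had a further summit of either list within 1000 bp, and the last was the weakest with AB2.

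The sites lay on 419 of the 1056 scaffolds that held shared peaks. Scaffold 3 held the most, 21 sites of 135 shared peaks, followed by scaffolds 2 (17 of 188) and 6 (17 of 107). The 7 scaffolds with the most sites held 10.6% of the sites and 9.28% of all shared peaks. Among the 157 scaffolds with at least 20 shared peaks, the share that were strong isolated sites had a median of 9.04% and ran from 0% to 29.6%, the last on scaffold 109 with 8 of 27. The sites were thus spread over many scaffolds. The extreme shares rest on few peaks, such as 0 of 27 on scaffold 82, and the variation between scaffolds was not tested.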

How the data were processed

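Each antibody had 1 peak list. Per the file headers, it gives for every peak the position and summit, the ChIP and Control signal, their ratio (fold enrichment), a score, a distribution score and an FDR. The deposited score equalled ChIP minus Control times the distribution score to within 0.03. The FDR, deposited by the authors with values up to 12.42 on a scale not stated, was not used. BWA is named in the submitters' processing notes and nemVec1 with the lists; the peak caller and the scaling of the signal are not given in the sources used here. Scores, signals and folds are the authors' own and serve to describe, rank or filter peaks.

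Lists were joined with Python 3.11.15, numpy 2.4.6 and pandas 2.3.3. Starts were taken as 0-based and are printed 1-based. The AB2 partner was the overlapping peak with the nearest summit, and "value" means ChIP minus Control. The joining was checked on simulated lists. Named sites followed a rule: the 10 highest AB1 values, 3 extremes of other measures, and ties at the threshold. Members and comparisons were chosen with earlier results of these data known. Columns of ChIP and Control values left unused numbered 0, and the Control columns were assigned to no single sample. RNA-seq tables were left out, since no gene positions on nemVec1 were used here. Overlap, distance, threshold and isolation were varied.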

Additional observations from a re-analysis of the deposited data

How the results depend on the processing

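The alternatives changed the overlap, threshold, isolation and measure of strength, and 4 of the 13 were chosen after seeing the data (isolation from both lists, the highest AB2 partner, no Control over 1.5, and antibodies exchanged). Intervals from binomial order statistics or an exact binomial interval (95%) over sites served as the margin for medians and shares, and 1.5 times for the number of sites. The intervals treat sites of 1 library as independent and do not measure a spread between replicates. The alternatives draw on the same lists, so the margins only sort them into moved and not moved. A threshold of 3 gave 1761 sites, a median AB2 value of 4.15 and 38.0% in the top 10% of AB2. A threshold of 6 gave 434 sites, 7.47 and 84.3%. A fold of at least 8 in place of the threshold gave an AB2 median of 4.07, 39.6% in the top 10% and a median summit distance of 12 bp. With antibodies exchanged the summit distance was 9 bp and the median AB1 to AB2 signal ratio of members, on the log2 scale, turned to -0.0895. Under the other alternatives run, each of these results stayed within its margin. No paired analysis was possible because each antibody had 1 sample. The lists give no read counts, so no value has a counting error, and sites weaker than the lowest listed ChIP minus Control (1 in both lists) were not analysed here.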

Other observations

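Of 2271 AB1 peaks with ChIP minus Control of at least 4, 57 overlapped no AB2 peak and so were not members. Their Control had a median of 3.31 (1.31 to 14.74) and their fold a median of 2.55 (2.03 to 4.62). A Control over 1.5 was found at 55 of the 57, which were not selected for isolation. It was found at 51 of the 1083 members, 23 of the 1131 strong joined sites and 1.4% of all shared peaks.

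The AB1 tag distribution score was under 1 at 3 members. On scaffold 40 at 1023611 to 1023854 it was 0.48, and the authors' score was 1.94 where ChIP minus Control was 4.01. The AB2 distribution score there was 1, with an AB2 ChIP minus Control of 5.87. On scaffold 3732 at 952 to 1195 the AB1 distribution score was 0.97, and on scaffold 700 at 52461 to 52704 it was 0.99.

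Among weak isolated sites, 242 had an AB2 ChIP minus Control of at least 4, the highest at 10.34, so strength in the AB2 list alone was not confined to members.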
